A study of Mus musculus with 12 samples.

Results

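Migratory dendritic cells (DCs) of the conventional type 1 (cDC1) were compared between liver and pancreas of B6 mice by RNA sequencing of poly(A) RNA, over all genes. The comparison took the 8 libraries whose titles name liver or pancreas, out of 12 in the series, with 4 libraries per tissue. Each library pooled 2 mice aged 6 to 8 weeks, and the labels give no treatment and no transgene, so organ of origin was the labelled difference between the groups. The cells had been sorted as live, CD45-positive, lineage-negative cells with CD11c, high MHC class II and CD103 and without CD11b, directly from each organ. The labels call them migratory DCs, and CD103 without CD11b is the surface pattern of cDC1. The other 4 libraries, from duodenum, entered the statistical fit and their levels are given for some genes as description. The series is about lymph node sharing between these organs, and the comparison asks how their DCs differ in transcripts.

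cDC1 take up dead cells and present their antigens on MHC class I to CD8 T cells. Migratory cDC1 leave a tissue through lymph, switch on the chemokine receptor CCR7 and bring tissue antigen to the draining lymph node. Their development needs the transcription factors IRF8 and BATF3, and signals of the tissue, such as interferons, retinoic acid, TGF-beta and lipid mediators, shape their further programme.

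The libraries held 220.9 to 317.9 M estimated counts in liver and 248.8 to 272.6 M in pancreas. Pairs of libraries correlated at 0.970 to 0.975 within liver, 0.964 to 0.972 within pancreas and 0.934 to 0.948 between these tissues, over log2 CPM (counts scaled to a common library total) of genes, which are not independent replicates. The 12 pairs within tissues all differed by more than counting noise, with chi-square values of 80.1 to 227 per degree of freedom. Mitochondrial genes took 1.12 to 1.24% of counts in liver and 1.09 to 1.19% in pancreas.

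The cDC1 label matched the markers in both tissues. Xcr1, the chemokine receptor through which cDC1 meet CD8 T cells, was at 589, 658, 685 and 511 CPM in liver 1 to 4 and at 368, 435, 461 and 360.0 CPM in pancreas 1 to 4. The lowest liver library thus lay above the highest pancreas library, but the difference of 0.59 ± 0.18 on the log2 scale (SE) did not pass the test (adjusted p = 0.22, edgeR quasi-likelihood test). In what follows the first of a pair of values is liver, ± is the SD over 4 libraries for CPM and the SE for log2 differences, which are liver minus pancreas, and each adjusted p is from this edgeR test over all genes. Clec9a, a receptor for dead cells, was at 373 ± 36.5 CPM in liver against 315 ± 48.0 CPM in pancreas (SD, n = 4 each). Irf8 was at 1355 ± 85.9 and 1264 ± 148 CPM and Batf3 at 106 ± 10.98 and 95.5 ± 20.8 CPM, and neither passed the test. Of the sort markers, H2-Ab1 of MHC class II was at 17596 ± 1465 and 17717 ± 2031 CPM, Itgae (CD103) at 324 ± 48.5 and 334 ± 46.2 CPM, Itgax (CD11c) at 187 ± 24.1 and 130.2 ± 20.03 CPM, and Ptprc (CD45) at 467 ± 36.6 and 444 ± 42.7 CPM. Itgam, which encodes the excluded CD11b, stood at 1.70 ± 1.15 CPM in liver against 2.67 ± 0.95 CPM in pancreas. None of these sort markers passed the test, though Itgax was called higher in liver in 4 of 25 alternatives, and so was Xcr1 in 5.

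Transcripts of cells outside the gate differed between the tissues and among libraries. The 33 genes of acinar cells, the enzyme-secreting cells of the exocrine pancreas, summed to 12.2, 11.2, 10.3 and 14.7 CPM in liver 1 to 4 and to 7964, 1398, 4279 and 3964 CPM in pancreas 1 to 4. Every pancreas library was far above every liver library, and pancreas 2 was the lowest of its group. Alb, the albumin gene of hepatocytes, was at 14.6, 8.74, 10.1 and 10.7 CPM in liver against 0.25, 0.066, 0.12 and 0.54 CPM in pancreas. The 29 hepatocyte genes summed to 249 to 391 CPM in liver against 392 to 459 CPM in pancreas, and Trf, transferrin, alone accounted for 138 to 220.2 CPM of the liver sums and 382 to 452 CPM of the pancreas sums. Plasma cell genes summed to 114, 845, 115 and 96.6 CPM in liver 1 to 4 and to 125, 115, 728 and 766 CPM in pancreas 1 to 4, so liver 2, pancreas 3 and pancreas 4 stood apart from the other 5. The total counts of calls, and those of some lists, are therefore also given below without these 3 libraries, which leaves 3 of liver and 2 of pancreas.

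**Figure D1:**
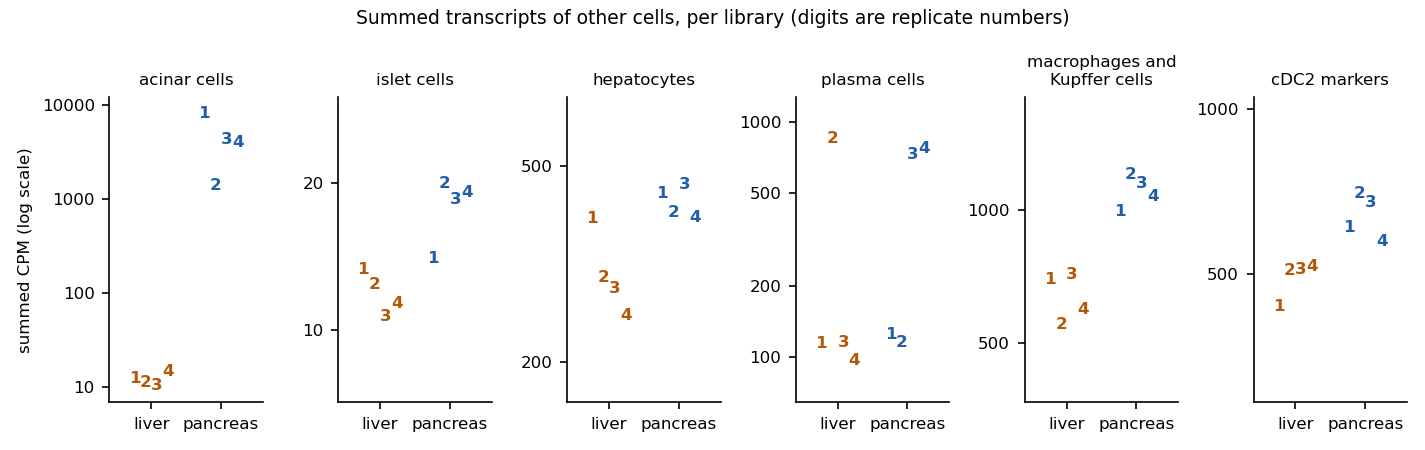
Summed CPM (log scale) of 6 marker lists of other cells in each liver (orange) and pancreas (blue) library, where each digit is a library's replicate number. Acinar sums separate the tissues, while plasma cell sums are high in liver 2, pancreas 3 and pancreas 4.

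Of 44624 genes tested, 494 were called at an adjusted p under 0.05, which is 1.11%. In liver 190 genes were higher (0.426%) and in pancreas 304 (0.681%), and in 489 of the 494 (1.1% of genes tested) the libraries of liver and pancreas did not overlap. Over all genes tested, without regard to the test, the liver libraries lay above all pancreas libraries in 3.11% and below them in 3.47%. Among the 18052 genes that reached 1 CPM in either tissue, 180 were higher in liver (0.997%) and 297 in pancreas (1.65%), together 2.64%. Counts of called list members below are to be read beside these shares. The share of calls higher in liver was 38.5% with TMM scaling, and 52.2% with library totals (428 and 392 genes), 55.6% with limma on log2(TPM + 1) (395 and 315 genes) and 56.9% with a pseudocount of 0.1 (409 and 310 genes). Without liver 2, pancreas 3 and pancreas 4 the counts were 86 and 91. Leaving out liver 4 gave 198 genes higher in pancreas, and leaving out duodenum 2 gave 295 and 454. The duodenum mean lay above both tissues for 82 of the genes higher in liver, between them for 69 and below both for 39, and for the genes higher in pancreas these numbers were 53, 143 and 108. As these are bulk libraries, fewer cells with a transcript and less of it per cell cannot be told apart, here or in any result that follows.

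**Figure D2:**
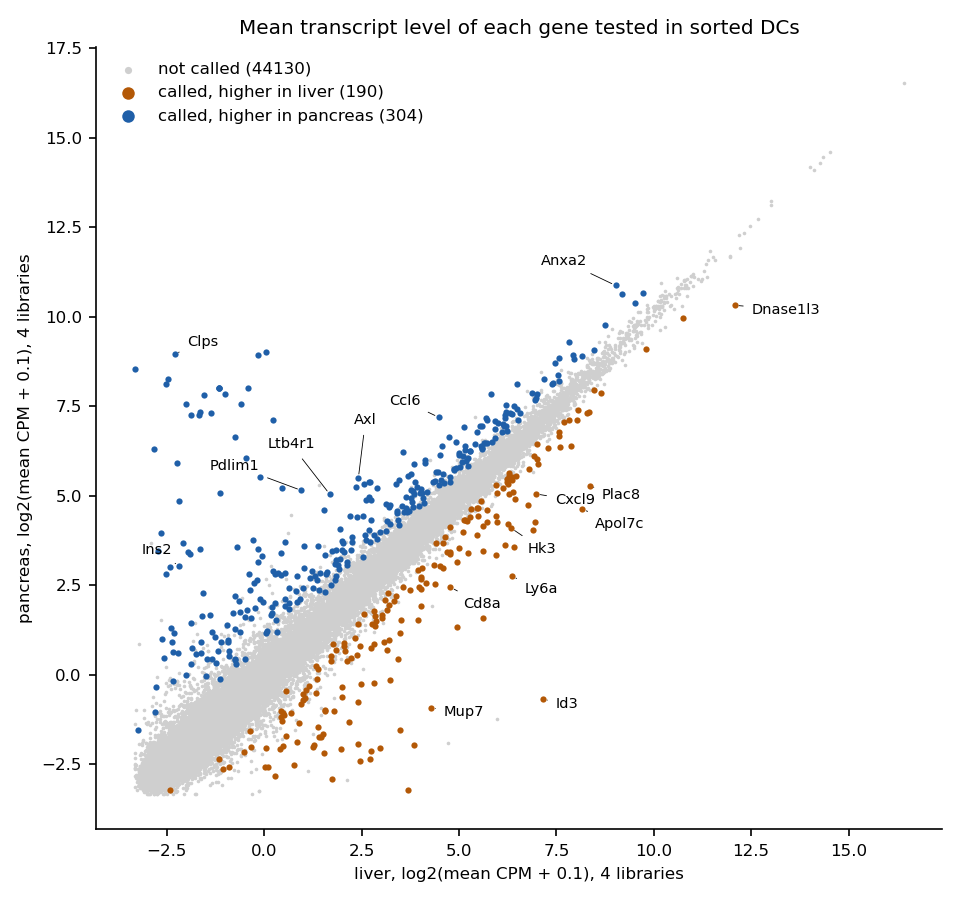
Mean level of each gene tested in liver (x axis) and pancreas (y axis), as log2(mean CPM + 0.1) over 4 libraries each, with genes called higher in liver in orange (190), higher in pancreas in blue (304) and all others in grey. Id3 stands farthest to the right of the diagonal among genes above 100 CPM in liver, and the blue points at the upper left include acinar genes such as Clps.

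Liver cDC1 were set apart by Id3 (ENSMUSG00000007872), a partner of E proteins that keeps them from binding DNA. Id3 was at 135, 136, 161 and 139 CPM in liver 1 to 4 and at 1.04, 0.15, 0.63 and 0.26 CPM in pancreas 1 to 4. All 4 liver libraries were above 100 CPM and no pancreas library was much above 1 CPM, a log2 difference of 8.09 ± 0.59 (adjusted p = 3.12e-06). Duodenum stood with pancreas, at 0.62 ± 0.31 CPM. Among 33 transcription factors of DCs only Id3 and Mycl, a MYC family member that cDC1 express, were called, both higher in liver, and the median log2 difference of the list was 0.05 beside 0.01 over all genes tested. Mycl was at 191 ± 24.5 and 102 ± 17.7 CPM, and its call ended without any 1 of liver 1, 2 or 3 or pancreas 1, 2 or 4 (adjusted p 0.056 to 0.0845). Tcf7l2, a factor of the Wnt pathway outside this list, was at 193 ± 23.8 CPM in liver against 81.9 ± 15.4 CPM in pancreas, a difference of 1.24 ± 0.15 (adjusted p = 0.000538). In the TGF-beta list of 27 genes, which also holds Id3, the signal transducer Smad3 was the other gene called, at 3.90 ± 1.19 CPM in liver against 11.1 ± 2.26 CPM in pancreas. Called shares were 6.06% of the transcription factors and 7.41% of the TGF-beta list. Over all genes tested 1.11% were called, and 2.64% of those at 1 CPM or more.

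Cd8a, which encodes the CD8 alpha chain that cDC1 of lymphoid organs carry, was at 32.0, 20.3, 27.9 and 29.3 CPM in liver against 3.61, 7.07, 6.07 and 4.59 CPM in pancreas. The groups did not overlap and differed by 2.36 ± 0.23 (adjusted p = 5.5e-05), while duodenum stood above both at 79.5 ± 17.6 CPM. The median of 24 cDC1 identity genes was 0.15. Of these 3 were higher in liver (12.5%, beside 0.997% of all genes at 1 CPM or more) and 0 in pancreas. The others were Snx22, a sorting nexin (324 ± 26.8 against 162 ± 19.7 CPM, difference 1.00 ± 0.14, adjusted p = 0.00129), and Tlr11, an endosomal receptor for microbial profilin (81.6 ± 14.2 against 43.3 ± 6.08 CPM, 0.91 ± 0.16, adjusted p = 0.00946). Tlr12, which senses the same ligand together with Tlr11, was at 107, 95.1, 133 and 99.5 CPM in liver against 16.2, 33.3, 25.0 and 31.8 CPM in pancreas. Every liver library held more of it than every pancreas library, by 2.03 ± 0.21 (adjusted p = 0.000108). Cd207, which encodes langerin, was at 33.2, 29.1, 41.1 and 27.6 CPM in liver against 86.1, 52.8, 59.4 and 62.0 CPM in pancreas, and despite groups that did not overlap it did not pass (difference -0.99 ± 0.77, adjusted p = 0.86).

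Transcripts of Ly6a, Plac8, Cd34, Ctla2b and Serpina3g were higher in liver than in pancreas. In duodenum Ly6a was at 9.34 ± 4.16 CPM, Cd34 at 15.4 ± 1.17 CPM, Serpina3g at 75.6 ± 27.5 CPM and Ctla2b, above both tissues, at 350 ± 60.6 CPM. Ly6a (Sca-1, a surface protein of progenitors and of interferon-exposed lymphocytes) was at 78.9, 80.1, 75.5 and 94.3 CPM in liver against 4.06, 4.97, 8.01 and 9.34 CPM in pancreas, and the groups were far apart (3.64 ± 0.36, adjusted p = 6.39e-05). Plac8, a small protein of myeloid cells and plasmacytoid DCs, was at 331, 292, 324 and 358 CPM in liver against 23.3, 26.6, 33.1 and 70.7 CPM in pancreas. Pancreas 4 was the highest of its group and still below every liver library (3.09 ± 0.29, adjusted p = 3.88e-05). Cd34, a sialomucin of progenitors and endothelium, was at 84.7 ± 10.3 and 11.7 ± 2.36 CPM (2.86 ± 0.16, adjusted p = 8.61e-07). Of 15 endothelial genes none was called by edgeR, with 5 higher in liver and 1 in pancreas at an unadjusted p under 0.05 and up to 3 called higher in liver in other settings. Their median was 0.39, and their sums were 48.1 to 61.3 CPM in liver against 47.5 to 57.7 CPM in pancreas. The protease inhibitor genes Ctla2b (119 ± 13.1 against 16.3 ± 3.43 CPM, 2.87 ± 0.17, adjusted p = 8.61e-07) and Serpina3g (125 ± 53.5 against 19.2 ± 6.78 CPM, 2.70 ± 0.36, adjusted p = 0.000969) were also higher in liver. Ly6a, Ctla2b, Serpina3g, the Apol genes and the Tgtp genes belong to families with near-identical members, so the division of reads among members is uncertain. Of 14 monocyte genes Plac8 and Ly6c2 were higher in liver and Nr4a1 was higher in pancreas. The median of this list was -0.61, and -0.20 among its genes at 1 CPM or more. At an unadjusted p under 0.05 in edgeR, 4 of its genes were higher in liver and 6 in pancreas. The call of Ly6c2 ended without any 1 of liver 1 to 4, pancreas 1, 2 or 3 or duodenum 4 (adjusted p 0.0553 to 0.138).

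Apol7c, Apol10b, Apoe and Dnase1l3 were also higher in liver. Apol7c, an apolipoprotein L gene, stood at 203, 339, 373 and 235 CPM in liver against 7.06, 11.1, 27.2 and 52.5 CPM in pancreas. The lowest liver library exceeded the highest pancreas library, with a difference of 3.55 ± 0.50 (adjusted p = 0.00217), while duodenum stood above both at 2434 ± 358 CPM. Apol10b was the only other of 13 family members called, at 10.8 ± 4.63 and 1.27 ± 0.85 CPM (3.09 ± 0.44, adjusted p = 0.00188), with duodenum again above both at 94.7 ± 21.5 CPM. Apoe, a carrier of lipids that macrophages and hepatocytes also make, was at 89.0, 46.4, 68.6 and 83.9 CPM in liver against 13.7, 12.1, 12.1 and 11.2 CPM in pancreas (2.55 ± 0.30, adjusted p = 0.000333). Liver 2 held the least Apoe of its group and also the least Alb. The summed hepatocyte genes had another order, at 391, 297, 282 and 249 CPM in liver 1 to 4. The part of hepatocyte RNA in the Apoe difference was not tested. Dnase1l3, a secreted nuclease that digests extracellular chromatin, was at 4098, 4991, 4736 and 3508 CPM in liver against 906, 1286, 1713 and 1208 CPM in pancreas, with every liver library above every pancreas library (1.76 ± 0.22, adjusted p = 0.000466). In the list of 27 LXR targets and lipid genes, Apoe and Soat1, which esterifies cholesterol, were higher in liver and the oxysterol receptor gene Gpr183 was higher in pancreas (13.6 ± 4.45 against 35.8 ± 5.64 CPM). Called shares were 11.1% of this list and 15.4% of the apolipoprotein L family. Over all genes tested 1.11% were called, and 2.64% of those at 1 CPM or more. The call of Soat1 ended without any 1 of liver 1 to 4, pancreas 1, 2 or 4 or duodenum 1, 3 or 4 (adjusted p 0.0607 to 0.151).

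**Figure D3:**
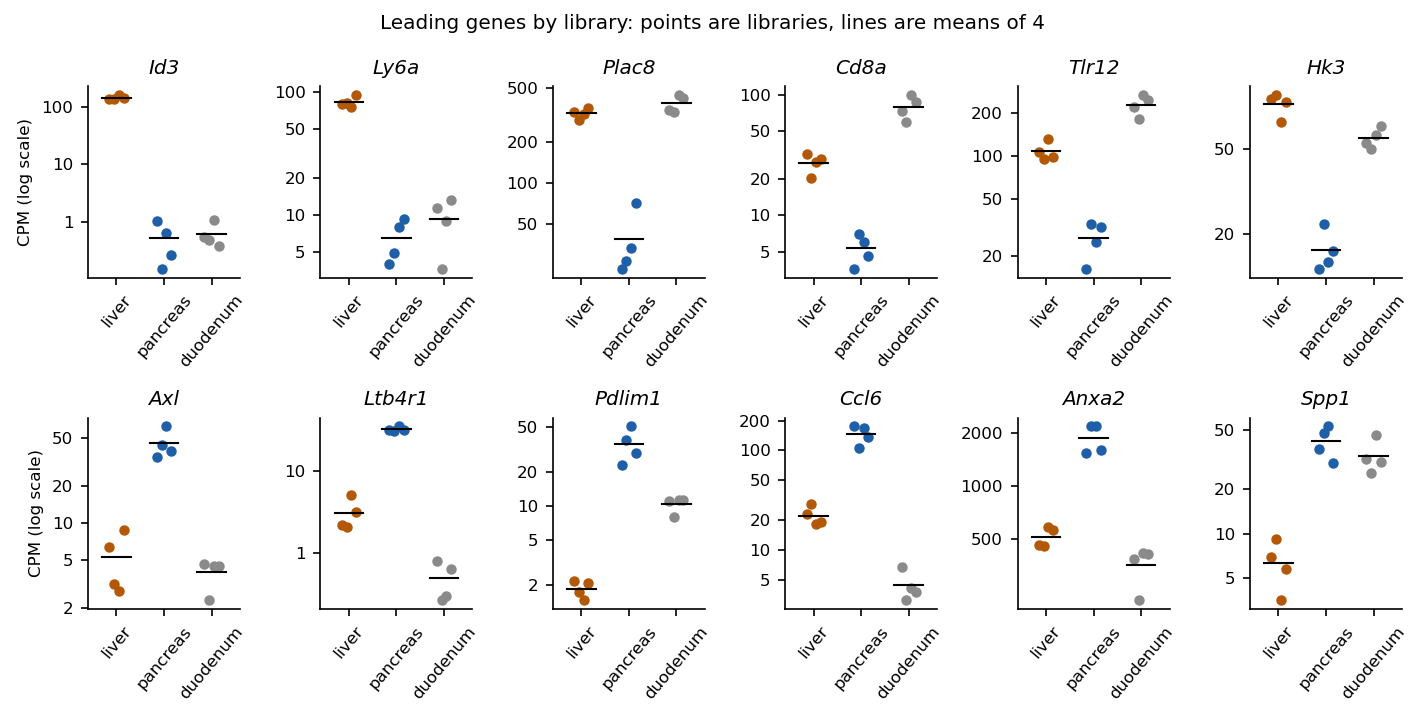
CPM (log scale, a different range in each panel) of 12 genes in each library of liver (orange), pancreas (blue) and duodenum (grey), where points are libraries and lines are means of 4. The upper row holds genes higher in liver and the lower row genes higher in pancreas. Liver and pancreas points do not overlap in any of the 12 panels, which for most of these genes was a condition of being named.

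Part of the interferon-gamma response was higher in liver. This cytokine acts on genes with gamma-activated sites (GAS) and, through IRF1, on genes with interferon-stimulated response elements (ISRE), and induces GTPases that attack intracellular microbes. Of 26 genes tested 10 were higher in liver and 0 in pancreas, with a median log2 difference of 1.07 beside 0.01 over all genes tested. The share higher in liver was 38.5%, beside 0.426% of all genes tested and 0.997% of those at 1 CPM or more. The count was 8 to 12 when 1 library was left out and 7 without liver 2, pancreas 3 and pancreas 4, and no member was called in a test against a log2 difference of 1. Tgtp1, such a GTPase, was at 69.1, 90.2, 33.8 and 53.5 CPM in liver against 6.23, 7.87, 20.7 and 5.34 CPM in pancreas. Pancreas 3 was the highest of its group and below the lowest liver library (2.62 ± 0.45, adjusted p = 0.00811). Tgtp2 stood at 76.9 ± 14.2 and 18.3 ± 8.40 CPM (2.07 ± 0.37, adjusted p = 0.0107) and Iigp1, another GTPase of this kind, at 11.3 ± 4.42 and 2.77 ± 1.09 CPM (2.03 ± 0.32, adjusted p = 0.00493). Cxcl9, a chemokine that draws T cells through CXCR3, was at 123, 172, 99.99 and 108 CPM in liver against 22.2, 30.6, 56.5 and 22.8 CPM in pancreas. All liver libraries lay above all pancreas libraries, with a difference of 1.93 ± 0.29 (adjusted p = 0.00313).

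The list also held regulators of the response, which were named after their values were seen. Irf1 was at 130.2, 134, 126 and 125 CPM in liver against 52.7, 55.9, 91.6 and 61.8 CPM in pancreas (0.98 ± 0.17, adjusted p = 0.00957). The liver libraries lay within a narrow range and pancreas 3 was the highest of its group. Socs1, the feedback inhibitor of the receptor, was at 10.4 ± 2.41 and 4.52 ± 1.56 CPM (1.20 ± 0.25, adjusted p = 0.0271), and its call ended without any 1 of liver 1, 2 or 4 or pancreas 1, 2 or 4 (adjusted p 0.0583 to 0.0957). The GTPase genes Gbp4, Gbp5 and Ifi47 differed by 1.48 ± 0.25, 1.37 ± 0.25 and 1.42 ± 0.25. Ciita, the master regulator of MHC class II transcription, was at 355 ± 23.7 and 247 ± 23.2 CPM (0.53 ± 0.11, adjusted p = 0.0271), and its call ended without any 1 of liver 1 to 4, pancreas 1, 2 or 4 or duodenum 1 (adjusted p 0.0501 to 0.112). It was also the 1 gene called among 21 of MHC class II presentation, whose median was -0.01. That share was 4.76%, beside 1.11% of all genes tested and 2.64% of those at 1 CPM or more.

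The promoters of 5 of these called genes are shown because they hold a motif of the pathway. The 250 bases before each RefSeq start were searched on both strands for GAS (TTCNNNGAA) and ISRE (GAAA, any 2 bases, GAAA). The letters are from the RefSeq promoter table of build GRCm38.p6, are given on the gene's own strand, 5′ to 3′, and capitals mark the matches.
Irf1, chr11:53769764-53770013, plus strand: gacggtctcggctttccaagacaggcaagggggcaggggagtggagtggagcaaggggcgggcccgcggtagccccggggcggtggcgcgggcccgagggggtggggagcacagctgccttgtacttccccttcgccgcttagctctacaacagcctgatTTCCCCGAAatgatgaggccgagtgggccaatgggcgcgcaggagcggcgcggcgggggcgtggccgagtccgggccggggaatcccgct
Socs1, chr16:10785537-10785786, minus strand: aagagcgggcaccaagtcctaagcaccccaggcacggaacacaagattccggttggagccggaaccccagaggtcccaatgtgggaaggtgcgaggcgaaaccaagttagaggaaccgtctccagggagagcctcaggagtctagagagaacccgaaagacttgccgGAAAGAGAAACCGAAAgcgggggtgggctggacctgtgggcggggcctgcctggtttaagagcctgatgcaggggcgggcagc
Gbp5, chr3:142496684-142496933, plus strand: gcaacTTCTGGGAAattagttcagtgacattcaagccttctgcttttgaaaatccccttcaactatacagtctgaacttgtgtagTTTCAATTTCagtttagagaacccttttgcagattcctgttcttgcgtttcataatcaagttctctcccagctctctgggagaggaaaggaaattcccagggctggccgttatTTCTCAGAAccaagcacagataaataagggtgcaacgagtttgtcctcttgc
Tgtp1, chr11:48992247-48992496, minus strand: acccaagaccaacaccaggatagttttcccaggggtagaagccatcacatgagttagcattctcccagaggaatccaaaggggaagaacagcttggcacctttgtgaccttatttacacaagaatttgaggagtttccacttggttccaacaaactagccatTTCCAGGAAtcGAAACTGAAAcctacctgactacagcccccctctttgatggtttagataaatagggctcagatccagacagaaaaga
Tgtp2, chr11:49064213-49064462, minus strand: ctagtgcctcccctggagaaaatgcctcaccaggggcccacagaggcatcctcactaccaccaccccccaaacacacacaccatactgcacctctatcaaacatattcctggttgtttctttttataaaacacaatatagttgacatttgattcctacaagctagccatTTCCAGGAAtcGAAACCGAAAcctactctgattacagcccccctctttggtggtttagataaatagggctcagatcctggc

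Counted from the base before the start as -1, Irf1 held GAS at -90 to -82. Gbp5 held GAS at -245 to -237 and at -52 to -44, and ISRE at -165 to -156. Socs1 held 2 ISRE matches that overlap, at -83 to -74 and at -77 to -68. In Tgtp1 GAS at -88 to -80 was followed by ISRE at -77 to -68, and in Tgtp2 GAS at -81 to -73 by ISRE at -70 to -61. Over 27025 mouse promoters of this length, GAS was found in 7.18%, ISRE in 3.04% and at least 1 of them in 9.83%. Of the 10 called genes 7 had a promoter in the table and 5 of these held a match, while Ciita, Gbp4 and Iigp1 had no entry. Of the 16 members not called 12 had a promoter and 8 held a match, so matches were found among called and uncalled members alike. A match is a description of the sequence, and binding was not measured here.

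**Figure D4:**
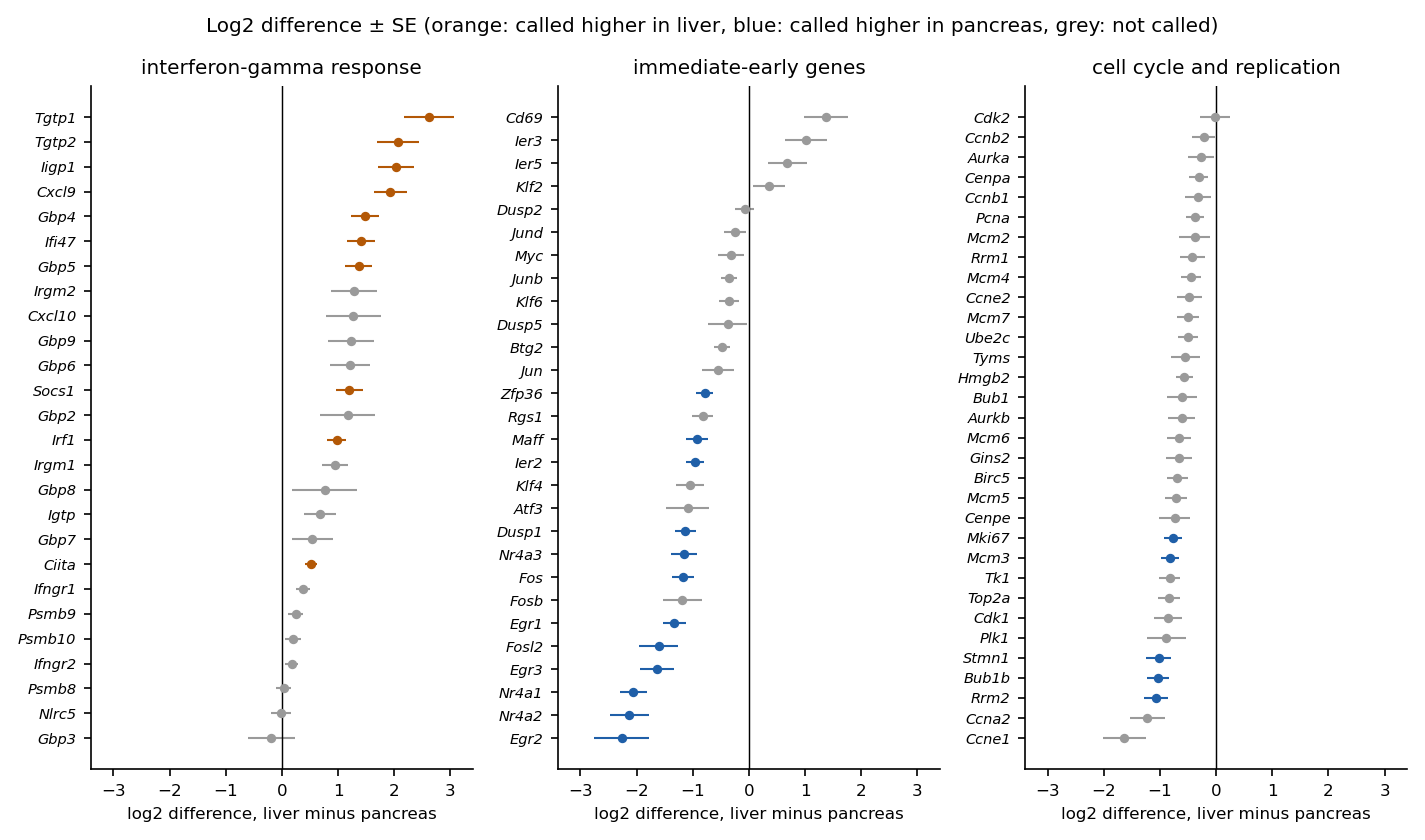
Log2 difference, liver minus pancreas, with its SE for every tested member of 3 lists, in orange where called higher in liver, blue where called higher in pancreas and grey where not called. The interferon-gamma list reaches from Gbp3 below 0 to Tgtp1 at 2.62, 12 of 28 immediate-early genes are called to the left of 0, and all 32 cell cycle genes lie at or left of 0.

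Of 35 maturation and migration genes tested, 2 were higher in liver and 0 in pancreas (5.71%, beside 1.11% of all genes tested and 2.64% of those at 1 CPM or more), and the median was -0.09. Pdcd1lg2, which encodes the PD-1 ligand PD-L2, was at 4.98, 8.47, 9.27 and 10.6 CPM in liver against 1.11, 2.33, 1.49 and 2.27 CPM in pancreas, with no overlap (2.21 ± 0.34, adjusted p = 0.0042). Cd274, which encodes PD-L1, was at 15.6 ± 3.19 and 5.38 ± 2.76 CPM (1.54 ± 0.34, adjusted p = 0.0445), and its call ended without any 1 of liver 1 to 4, pancreas 1, 2 or 4 or duodenum 1 or 4 (adjusted p 0.0527 to 0.133). Ccr7, which guides DCs to lymph nodes, was at 132, 272, 213 and 264 CPM in liver against 182, 167, 397 and 215 CPM in pancreas. The groups overlapped widely and the difference of -0.13 ± 0.38 did not pass (adjusted p = 0.987). Il12b, a cytokine of T cell priming, stood at 50.2 ± 15.4 and 72.4 ± 27.4 CPM (adjusted p = 0.708) and Cd40, the receptor for T cell help, at 56.2 ± 13.05 and 26.2 ± 8.61 CPM (adjusted p = 0.0704, called higher in liver in 9 of 25 alternatives). Ccr7, Il12b, Cd40 and Cd207 were named after their values were seen.

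Of 31 chemokine and cytokine ligand genes, those called were mostly higher in pancreas. Ccl6, a CC chemokine of myeloid cells, was at 22.8, 28.9, 18.0 and 19.0 CPM in liver against 175, 105, 166 and 137 CPM in pancreas. Every pancreas library was above 100 CPM and no liver library reached 30, a difference of -2.72 ± 0.25 (adjusted p = 2.92e-05), and duodenum held 4.42 ± 1.56 CPM. Spp1, which encodes the secreted adhesive protein osteopontin, was at 6.96, 9.16, 3.55 and 5.77 CPM in liver against 37.3, 47.4, 53.0 and 29.9 CPM in pancreas (-2.72 ± 0.29, adjusted p = 0.000117). Spp1 is also made by ducts, and of 13 duct genes Spp1, Epcam and Tff2 were higher in pancreas, with Tff2 at 0.012 to 0.11 CPM in liver against 7.34 to 26.9 CPM in pancreas. The 13 genes summed to 22.3 to 43.2 CPM in liver against 99.3 to 149 CPM in pancreas. The part of duct RNA in the Spp1 difference was not tested. Ccl9, a neighbour of Ccl6 in the same chemokine family, differed by -1.84 ± 0.20 (adjusted p = 0.000173). The inflammatory genes Ccl4 (1.70 ± 0.57 against 6.67 ± 4.48 CPM) and Il1b (4.49 ± 1.19 against 21.3 ± 15.6 CPM) were called higher in pancreas as well, but without any 1 of liver 2, 3 or 4 or pancreas 2 or 4 (adjusted p 0.0504 to 0.0931) for Ccl4, and without any 1 of liver 1 to 4 or pancreas 3 or 4 (adjusted p 0.0563 to 0.0912) for Il1b, the call ended. In all 5 of 31 ligand genes were higher in pancreas and 1, Cxcl9, in liver. Those 5 include Spp1 and Il1b, which are not chemokines. The share called in either direction was 19.4%, beside 1.11% of all genes tested and 2.64% of those at 1 CPM or more. Ccl5 was at 52.4, 157, 165 and 180.0 CPM in liver against 284, 252, 611 and 253 CPM in pancreas, with no overlap, and did not pass (-1.34 ± 0.81, adjusted p = 0.754).

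Among 17 chemokine receptors 1 was called in each direction. The share called was 11.8%, beside 1.11% of all genes tested and 2.64% of those at 1 CPM or more. Ccr9, the receptor for the gut chemokine CCL25, was at 37.2, 35.2, 22.8 and 33.5 CPM in liver against 9.48, 8.70, 8.88 and 19.4 CPM in pancreas (1.47 ± 0.28, adjusted p = 0.0177). Pancreas 4 was the highest of its group and near the lowest liver library, and the call ended without any 1 of liver 1, 2 or 4 or pancreas 1, 2 or 3 (adjusted p 0.0602 to 0.0817). Ccr1, a receptor for inflammatory chemokines, was at 0.23 ± 0.12 CPM in liver against 1.41 ± 0.67 CPM in pancreas, and its call ended without any 1 of liver 1, 3 or 4 or pancreas 2 or 3 (adjusted p 0.0543 to 0.0766). Ccr9 is shared with plasmacytoid DCs, and it was the 1 gene called of 13 in their list, whose sums were 279 to 294 CPM in liver against 187 to 239 CPM in pancreas.

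Enzymes of sugar and tryptophan use were among the genes higher in liver. Hk3, a hexokinase of myeloid cells, was at 85.1, 89.2, 66.9 and 82.1 CPM in liver against 13.8, 22.4, 14.9 and 16.8 CPM in pancreas, and the groups were well separated (2.25 ± 0.17, adjusted p = 3.61e-06). Hk2, which catalyses the same step, was at 75.7 ± 9.21 and 41.6 ± 11.1 CPM, and its call ended without any 1 of liver 1, 2 or 3 or pancreas 1 or 3 (adjusted p 0.0554 to 0.0901). These were the 2 genes called of 29 in the glycolysis and hypoxia list, whose median was -0.09. That share was 6.90%, with 7.69% in the list of aryl hydrocarbon receptor targets and 4% in that of cholesterol synthesis. Over all genes tested 1.11% were called, and 2.64% of those at 1 CPM or more. Kynu, which degrades kynurenine, was at 31.0 ± 2.81 and 8.68 ± 1.80 CPM (1.84 ± 0.17, adjusted p = 3.19e-05) and was the 1 gene called of 13 in the list of aryl hydrocarbon receptor targets. Trpm2, a calcium channel opened by oxidative stress, was at 234 ± 31.4 and 83.6 ± 18.0 CPM (1.48 ± 0.17, adjusted p = 0.000225). Of 25 cholesterol synthesis genes Fdft1 was called, higher in liver, with a list median of 0.50, and that call ended without any 1 of liver 1 to 4, pancreas 1, 3 or 4 or duodenum 1, 3 or 4 (adjusted p 0.0603 to 0.186), while 8 genes of the list were called without pancreas 2. Further genes higher in liver were Fndc5, the precursor of irisin (2.45 ± 0.27, adjusted p = 0.000173), Pgbd5, a transposase-derived gene (2.38 ± 0.47, adjusted p = 0.021), Zc3h12d, of a ribonuclease family (1.15 ± 0.20, adjusted p = 0.0106), and Asb2, a ubiquitin ligase subunit (1.03 ± 0.20, adjusted p = 0.0206). Fndc5 was at 15.4 ± 2.75 CPM in liver and higher still in duodenum, at 46.3 ± 8.92 CPM. The call of Pgbd5 ended without any 1 of liver 1 or 3 or pancreas 1 or 3 (adjusted p 0.0632 to 0.0748), that of Zc3h12d without pancreas 1 (adjusted p 0.0501) and that of Asb2 without any 1 of liver 1 or 3 or pancreas 1 or 2 (adjusted p 0.0545 to 0.0778).

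Among the named genes higher in pancreas were Anxa2, S100a10, Vim, Gas7, Pdlim1, Cass4, Pcdh7 and Ahnak, which belong to no list that was tested as a group. Anxa2 and S100a10 encode the subunits of 1 membrane-binding complex. Anxa2 was at 464, 458, 587 and 564 CPM in liver against 1541, 2185, 2183 and 1603 CPM in pancreas, with no overlap (-1.86 ± 0.19, adjusted p = 0.000108), and S100a10 at 91.6, 77.6, 99.3 and 91.1 CPM in liver against 208, 329, 316 and 257 CPM in pancreas (-1.63 ± 0.20, adjusted p = 0.000545). In both genes pancreas 2 and pancreas 3 were the highest and pancreas 1 the lowest of their group. Vim, the intermediate filament protein vimentin, was at 580.0 ± 62.8 and 1583 ± 280.5 CPM (-1.45 ± 0.16, adjusted p = 0.000189), and Gas7, which shapes actin, at 56.3 ± 16.8 and 228 ± 41.3 CPM (-2.02 ± 0.23, adjusted p = 0.000212). Pdlim1 (ENSMUSG00000055044), an adaptor of actin stress fibres, was at 2.13, 1.70, 1.45 and 2.06 CPM in liver against 22.98, 38.1, 50.7 and 29.6 CPM in pancreas. Every pancreas library was at least 10 times any liver library, and the difference was -4.27 ± 0.26 (adjusted p = 8.61e-07). Cass4, a scaffold of focal adhesions (-3.13 ± 0.40, adjusted p = 0.000785), and Pcdh7, a protocadherin (-4.22 ± 0.29, adjusted p = 1.86e-06), were also higher in pancreas. Ahnak, a large scaffold protein that binds S100A10, was at 225 ± 16.5 and 624 ± 66.9 CPM (-1.47 ± 0.28, adjusted p = 0.0188), and its call ended without any 1 of liver 1 to 4 or pancreas 2, 3 or 4 (adjusted p 0.051 to 0.0789). Of 24 leukocyte integrins and adhesion genes only Itgb7 was called (4.17%, beside 1.11% of all genes tested and 2.64% of those at 1 CPM or more). Itgb7 was at 341 to 372 CPM in liver against 469.8 to 633 CPM in pancreas. Its call ended without any 1 of liver 1 to 4, pancreas 2, 3 or 4 or duodenum 4 (adjusted p 0.0612 to 0.119).

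Single receptor genes for dying cells, lipid mediators and antibodies were called higher in pancreas. Axl (ENSMUSG00000002602), a receptor tyrosine kinase that binds dying cells through GAS6, was at 6.28, 3.13, 2.74 and 8.79 CPM in liver against 34.7, 43.8, 62.2 and 38.9 CPM in pancreas. The groups were widely separated (-3.10 ± 0.37, adjusted p = 0.000352), and duodenum stood with liver at 3.94 ± 1.09 CPM. Timd4, a receptor for phosphatidylserine, was at 2.50, 9.48, 4.05 and 4.44 CPM in liver against 17.5, 16.3, 29.5 and 20.5 CPM in pancreas (-2.03 ± 0.39, adjusted p = 0.0191), and its call ended without any 1 of liver 1, 3 or 4 or pancreas 3 (adjusted p 0.0563 to 0.0772). These were the 2 genes called of 22 for the uptake of apoptotic cells, with a list median of -0.18. That share was 9.09%, beside 1.11% of all genes tested and 2.64% of those at 1 CPM or more. Ltb4r1, the receptor for leukotriene B4, was at 2.16, 2.06, 5.05 and 3.16 CPM in liver against 32.1, 31.0, 35.8 and 32.3 CPM in pancreas. The pancreas libraries varied little and all lay above every liver library (-3.402 ± 0.37, adjusted p = 0.000156). Of 26 eicosanoid enzymes and receptors 15.4% were called, beside 1.11% of all genes tested and 2.64% of those at 1 CPM or more. In this list 3 were higher in pancreas and 1, the leukotriene C4 synthase gene Ltc4s, in liver. The other 2 in pancreas were Tbxas1, thromboxane synthase (-0.67 ± 0.14, adjusted p = 0.0291), and Hpgds, a prostaglandin D synthase (-1.67 ± 0.37, adjusted p = 0.0477). The call of Tbxas1 ended without any 1 of liver 1 to 4, pancreas 1 to 4 or duodenum 1 (adjusted p 0.0523 to 0.123) and that of Hpgds without any 1 of liver 2, 3 or 4, pancreas 1, 2 or 3 or duodenum 1, 3 or 4 (adjusted p 0.0634 to 0.146).

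Fcgr2b, the inhibitory receptor for IgG, was at 65.3, 36.9, 51.4 and 51.2 CPM in liver against 149, 146, 143 and 141 CPM in pancreas, where the 4 values were nearly equal (-1.50 ± 0.25, adjusted p = 0.0069). Fcer1g, the signalling chain shared by activating Fc receptors, was at 26.8 ± 6.00 and 98.9 ± 18.9 CPM (-1.88 ± 0.26, adjusted p = 0.00129). They were the 2 genes called of 12 Fc receptor genes, a share of 16.7%. Of the C-type lectins 13.8% were called and of the pattern recognition genes 14.3%. These shares stand beside 1.11% of all genes tested and 2.64% of those at 1 CPM or more. Among 29 C-type lectins Clec4b1 (0.80 ± 0.55 against 11.2 ± 3.55 CPM, -3.80 ± 0.55, adjusted p = 0.00217), Clec4a2 (1.25 ± 0.74 against 10.4 ± 3.19 CPM, -3.06 ± 0.44, adjusted p = 0.00204) and Mgl2 were higher in pancreas, and Clec1b was higher in liver. The call of Mgl2 ended without any 1 of liver 2 or 4 (adjusted p 0.0543 to 0.0626) and that of Clec1b without any 1 of liver 1 to 4, pancreas 1, 2 or 4 or duodenum 1 (adjusted p 0.0522 to 0.121). In the pattern recognition list of 28 genes, Tlr11 and Tlr12 were higher in liver, and Tlr2, for bacterial lipoproteins (14.96 ± 2.87 against 37.5 ± 6.37 CPM), and Cd14, for lipopolysaccharide (1.17 ± 0.59 against 7.09 ± 2.52 CPM, -2.60 ± 0.41, adjusted p = 0.00437), in pancreas. The call of Tlr2 ended without any 1 of liver 1, 2 or 4 or pancreas 2, 3 or 4 (adjusted p 0.0552 to 0.099).

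Macrophages, B cells and cDC2 express several of these receptors. Macrophage genes summed to 698, 550.1, 715 and 596 CPM in liver 1 to 4 and to 992, 1204, 1150.4 and 1074 CPM in pancreas 1 to 4, and 3 of 20 were higher in pancreas, Lyz2, Timd4 and Cd14. Lyz2, lysozyme, made up most of the sum, at 431 ± 60.5 and 867 ± 66.5 CPM (-1.01 ± 0.14, adjusted p = 0.00166). The median of the list was -0.14, and 0.30 among its 12 genes at 1 CPM or more. In this list 5 genes were higher in liver and 5 in pancreas at an unadjusted p under 0.05 in edgeR. Of its genes that were not called, and picked after their values were seen, Adgre1 was at 1.62 to 3.77 CPM in liver against 2.77 to 6.71 CPM in pancreas, C1qa at 0.91 to 4.32 and 0.49 to 2.85 CPM, and the Kupffer cell gene Clec4f at 0.25 to 1.91 and 0.075 to 0.28 CPM. The 13 B cell genes summed to 195 to 231 CPM in liver against 227 to 497 CPM in pancreas, and none was called, with 1 higher in liver and 4 in pancreas at an unadjusted p under 0.05 and up to 1 called higher in pancreas in alternatives. The 19 cDC2 genes summed to 436 to 516 CPM in liver against 573 to 702 CPM in pancreas, and 3 of them, Epcam, Clec4a2 and Mgl2, were higher in pancreas. The median of the cDC2 list was -0.51. The part of these cells in the differences of the receptor genes was not tested. In the edgeR fit over all 12 libraries no gene was called among markers of T cells (16 genes), NK and innate lymphoid cells (17), neutrophils (14), mast cells and basophils (13), stroma and stellate cells (16), erythroid cells (10) and sex-linked genes (5), where 0 to 2 genes per list were higher in liver and 0 to 4 in pancreas at an unadjusted p under 0.05. Of the stroma genes up to 3 were called higher in pancreas with 1 library left out and up to 4 in other settings. In the 15 plasma cell genes Igha was higher in pancreas, and that call ended without any 1 of liver 1 to 4, pancreas 2 or 4 or duodenum 2 (adjusted p 0.0531 to 0.101). Of 21 genes of intestinal epithelium Fabp1 was higher in liver and Epcam in pancreas.

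Single genes of growth factor, TNF family and retinoid signalling were higher in pancreas too. In the TNF and retinoid lists 6.67% and 4.55% were called, beside 1.11% of all genes tested and 2.64% of those at 1 CPM or more. These calls are about the genes named and not about the pathways. Fgfr1, a receptor for fibroblast growth factors, was at 38.4, 38.8, 35.8 and 25.9 CPM in liver against 140.1, 120.0, 119 and 106 CPM in pancreas, without overlap (-1.80 ± 0.16, adjusted p = 1.71e-05). Tnfrsf13b, which encodes the BAFF and APRIL receptor TACI, was at 12.8 ± 1.41 and 46.6 ± 15.1 CPM (-1.86 ± 0.24, adjusted p = 0.000871). It was the 1 gene higher in pancreas among 30 of the TNF superfamily, and Tnfrsf26 was the 1 higher in liver. The count higher in liver in this list was 0 to 2 with 1 library left out. It was 0 without liver 2, pancreas 3 and pancreas 4. Dhrs3, which reduces retinaldehyde to retinol, was the 1 gene called of 22 in the retinoic acid pathway, at 122, 125, 121 and 100.5 CPM in liver against 204, 194, 324 and 207 CPM in pancreas (-0.99 ± 0.18, adjusted p = 0.0137). Pancreas 3 stood well above the other 3 of its group, and the call ended without liver 4 (adjusted p 0.0604). Epcam, an adhesion molecule of epithelium and Langerhans cells, was at 7.08, 5.81, 3.90 and 6.48 CPM in liver against 37.8, 42.5, 45.8 and 32.9 CPM in pancreas (-2.77 ± 0.27, adjusted p = 4.06e-05). Trf, which binds iron, was at 176 ± 34.7 and 415 ± 31.7 CPM (-1.23 ± 0.14, adjusted p = 0.000255), the 1 hepatocyte gene higher in pancreas, while 21 of the 29 were higher in liver. Map3k6, a stress kinase gene (-3.27 ± 0.53, adjusted p = 0.00595), was also higher in pancreas.

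Immediate-early genes, which cells switch on within minutes of stimulation, were called in 1 direction. Of 28 tested 12 were higher in pancreas and 0 in liver, and the median was -0.87 beside 0.01 over all genes. The share higher in pancreas was 42.9%, beside 0.681% of all genes tested and 1.65% of those at 1 CPM or more. Nr4a1, a nuclear receptor induced by antigen receptor and growth factor signals, was at 16.5, 14.4, 13.8 and 12.05 CPM in liver against 50.9, 43.6, 52.7 and 90.0 CPM in pancreas. No library of one group reached the other, and pancreas 4 was the highest (-2.06 ± 0.24, adjusted p = 0.00026). Fos, an AP-1 subunit, was at 57.2, 61.3, 68.8 and 54.8 CPM in liver against 162, 82.6, 139 and 163 CPM in pancreas (-1.18 ± 0.20, adjusted p = 0.00705), with pancreas 2 the lowest of its group and above every liver library. Egr1, an early zinc finger factor, was at 12.4 ± 3.35 and 31.2 ± 6.29 CPM (-1.33 ± 0.20, adjusted p = 0.00382) and its relative Egr3 at 22.5 ± 6.33 and 70.1 ± 28.7 CPM (-1.64 ± 0.30, adjusted p = 0.0124). Nr4a2 (-2.13 ± 0.35, adjusted p = 0.00595), Ier2 (-0.97 ± 0.16, adjusted p = 0.0057) and the phosphatase gene Dusp1 (-1.13 ± 0.19, adjusted p = 0.00735) were called too. The remaining calls were Egr2, Zfp36, Maff, Nr4a3 and Fosl2, and each ended without at least 1 single library. For Egr2 this was without any 1 of liver 1, 3 or 4, pancreas 1 to 4 or duodenum 3 (adjusted p 0.0526 to 0.124), for Zfp36 without any 1 of liver 1 or 2 (adjusted p 0.0516 to 0.0566), for Maff without any 1 of liver 1, 2 or 3 or pancreas 2 or 3 (adjusted p 0.0687 to 0.104), for Nr4a3 without any 1 of liver 1, 2 or 4 or pancreas 3 or 4 (adjusted p 0.0737 to 0.0959) and for Fosl2 without any 1 of liver 1 to 4, pancreas 2, 3 or 4 or duodenum 3 (adjusted p 0.0518 to 0.12). The count of the list was 7 to 14 when 1 library was left out, and 7 was the count without liver 1. Only Nr4a1 of these 12 was called without liver 2, pancreas 3 and pancreas 4. Levels in duodenum were above both tissues for Nr4a1, at 229 ± 60.0 CPM, and for Fos, at 1057 ± 209.6 CPM. None of 18 heat-shock chaperone genes was called, and their median was -0.13.

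Of 32 cell cycle genes tested 5 were higher in pancreas and 0 in liver, and the median was -0.63. That share was 15.6%, beside 0.681% of all genes tested and 1.65% of those at 1 CPM or more. Rrm2, a subunit of ribonucleotide reductase, was at 66.6, 81.8, 80.8 and 61.6 CPM in liver against 118, 167, 189 and 134 CPM in pancreas (-1.07 ± 0.21, adjusted p = 0.0243), without overlap. Mki67, which marks cycling cells, was at 53.6, 59.2, 53.3 and 42.5 CPM in liver against 84.9, 96.7, 102 and 71.2 CPM in pancreas (-0.77 ± 0.16, adjusted p = 0.0345). Mcm3, of the replicative helicase, Stmn1, which regulates microtubules, and Bub1b, of the spindle checkpoint, differed by -0.82 ± 0.16, -1.03 ± 0.22 and -1.03 ± 0.20. Each of the 5 calls ended without some single library. For Rrm2 this was without any 1 of liver 1 to 4 or pancreas 2 or 3 (adjusted p 0.0544 to 0.097), for Mki67 without any 1 of liver 1 to 4, pancreas 1, 2 or 3 or duodenum 1 (adjusted p 0.0547 to 0.128), for Mcm3 without any 1 of liver 1, 3 or 4 or pancreas 2 or 3 (adjusted p 0.0501 to 0.0874), for Stmn1 without any 1 of liver 1, 3 or 4, pancreas 2, 3 or 4 or duodenum 1 or 4 (adjusted p 0.0528 to 0.139) and for Bub1b without any 1 of liver 1 to 4 or pancreas 1 or 2 (adjusted p 0.0511 to 0.0912). No gene of the list was called without liver 1, without liver 3, without liver 4, without pancreas 2 or without the 3 libraries with plasma cell transcripts, and 11 were without duodenum 2.

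Genes of the exocrine pancreas were far higher in pancreas libraries. Of 33 acinar genes 29 were higher in pancreas and 0 in liver. Clps, which encodes colipase, was at 0.14, 0.024, 0.14 and 0.11 CPM in liver against 922, 217, 456 and 391 CPM in pancreas, and Cela2a, an elastase gene, at 0.98, 0.58, 1.04 and 0.58 CPM in liver against 824, 183, 512 and 442 CPM in pancreas. Amylase genes outside the list gave the same picture, with Amy2a1 at 94.4 to 721 CPM in pancreas and at 0 in 3 of 4 liver libraries, though its call ended without any 1 of liver 1 to 4 (adjusted p 0.0514 to 0.145). Amy2a2 and Amy2a4 had identical values in every library, so their reads cannot be assigned to 1 gene. Of 17 islet genes Ppy, Ins1 and Ins2 were higher in pancreas and Ttr, which hepatocytes also make, in liver, where the call ended without any 1 of liver 1 to 4, pancreas 2 or 4 or duodenum 1 or 4 (adjusted p 0.0557 to 0.133). The count of islet genes higher in pancreas was 2 to 4 with 1 library left out. It was 1 without liver 2, pancreas 3 and pancreas 4. Ins2, an insulin gene of islet beta cells, was at 0.073, 0.071, 0.17 and 0.16 CPM in liver against 4.45, 9.38, 9.54 and 8.93 CPM in pancreas (-6.09 ± 0.49, adjusted p = 8.45e-06). Here pancreas 1, the library with the highest acinar sum, was the lowest of its group. A set of 3 genes of acinar cells that were not in the list followed the acinar sums. Nupr1, a stress-induced chromatin protein, was at 65.3, 18.7, 37.5 and 26.9 CPM in pancreas 1 to 4 and 0.85 to 1.90 CPM in liver, Pla2g1b, the pancreatic phospholipase, at 43.0, 13.4, 34.9 and 24.9 CPM in pancreas and 0.066 to 0.20 CPM in liver, and Pdia2, a protein disulphide isomerase of the pancreas, at 19.0, 4.06, 9.29 and 14.8 CPM in pancreas and 0.43 to 0.70 CPM in liver. All 3 were highest in pancreas 1 and lowest in pancreas 2, as the acinar sum was. The part of acinar RNA in the other differences was not tested. With all genes of the other-cell lists left out of the fit, 406 genes were called, 156 higher in liver and 250 in pancreas.

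In 6 of 30 pathway lists no gene was called in either direction. These were MHC class I and cross-presentation (27 genes, median 0.20), heat-shock chaperones, the unfolded protein response (25 genes, median 0.25), lysosome and proteolysis (30 genes, median -0.08), oxidative phosphorylation (31 genes, median -0.05) and the mitochondrially encoded genes (13 genes, median -0.16). In these lists 0 to 6 genes were higher in liver and 0 to 3 in pancreas at an unadjusted p under 0.05 in edgeR, and none was called in the edgeR fit given here. Other settings called up to 4 genes of MHC class I, 6 of the unfolded protein response and 2 of the lysosome list higher in liver, and up to 1 of the unfolded protein response and 2 mitochondrially encoded genes higher in pancreas. With 1 library left out up to 2 genes of the unfolded protein response and 1 of the lysosome list were called higher in liver, and up to 1 chaperone and 1 mitochondrially encoded gene higher in pancreas. Of all genes tested 1.11% were called, and of those at 1 CPM or more 2.64%. A list without a call does not show that its genes were equal in the 2 tissues.

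Several calls given above ended when liver 2, pancreas 3 and pancreas 4, the libraries with plasma cell transcripts, were left out together. Beside genes that already lost the call without 1 library, these were Pdcd1lg2, Tgtp2, Gbp5, Ifi47, Tlr11 and Fabp1 among the genes higher in liver. Among the genes higher in pancreas they were Cass4, Map3k6, S100a10, Fcgr2b, Fcer1g, Gpr183, Smad3, Cd14, Lyz2, Egr1, Egr3, Nr4a2, Fos, Ier2, Dusp1, Clps, Amy2a5 and Ins1. The direction of these genes did not change. Of the 112 called genes that were followed gene by gene over the alternatives, 57 lost the call in that setting. It left 3 liver and 2 pancreas libraries. In it the count higher in liver went from 21 to 9 for hepatocyte genes, from 3 to 2 for cDC1 identity and from 2 to 0 for maturation and migration. It stayed at 2 for the apolipoprotein L family. The count higher in pancreas went from 29 to 23 for acinar genes and from 2 to 0 for Fc receptors, and stayed at 2 for apoptotic cell uptake. Of the same 112 genes, 74 kept the call whichever 1 library was left out.

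**Figure D5:**
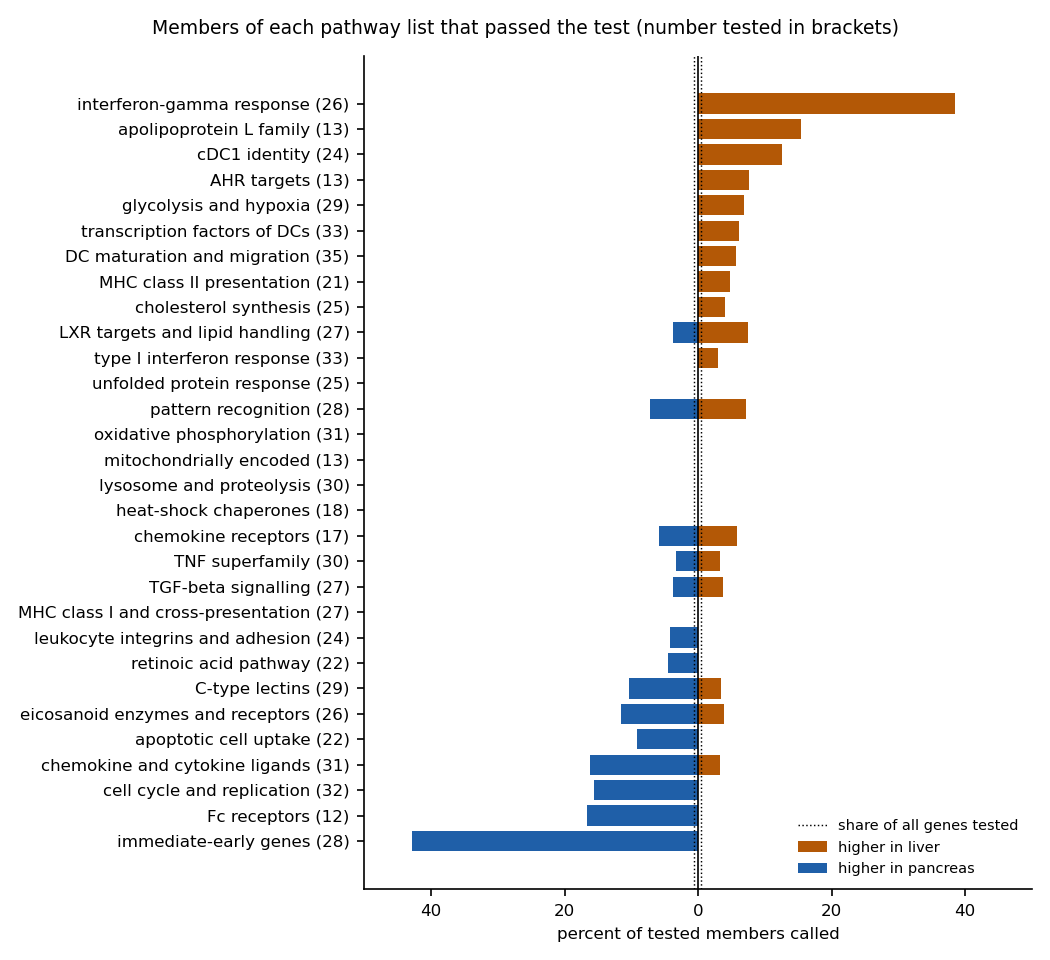
Percent of the tested members of each of 30 pathway lists called higher in liver (orange, right) or higher in pancreas (blue, left), with the number tested in brackets and dotted lines at the shares of all genes tested, 0.426% and 0.681%. The interferon-gamma list has the longest bar to the right (10 of 26) and the immediate-early list the longest to the left (12 of 28).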

How the data were processed

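RNA of sorted CD103-positive, CD11b-negative migratory DCs was sequenced after poly(A) selection in 12 libraries of pooled mice. The deposited estimated counts per gene, made by the authors with kallisto (version not stated in the labels) on GRCm39 per the submitters' processing notes, were rounded to whole numbers. The deposited TPM table gave gene symbols, and its TPM values were used in alternatives. The TPM table also held 3 nameless empty columns. The way transcripts were summed to genes, and any use of strand, are not given in the labels or headers used.

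Genes passing edgeR's filterByExpr (minimum count 10) in the 3 tissue groups were kept, 44624 of 55401. Counts were scaled by TMM and fitted over all 12 libraries with edgeR 4.0.16 (robust quasi-likelihood, R 4.3.3). Liver minus pancreas was tested two-sided, with Benjamini-Hochberg adjustment over all genes and a threshold of 0.05. Differences are on the log2 scale with SE, and CPM use TMM-scaled totals. CPM are not scaled by gene length, so sums over lists, and the part of 1 gene in such a sum, give more weight to long transcripts. The labels name biological replicates but not which pools shared a day, so p-values measure the spread between these pools. Samples were not paired in the fit, as the labels do not say whether a shared number marks a shared pool or day. Deviations of same-numbered libraries correlated at -0.05 to 0.08, and those of differently numbered libraries at -0.09 to 0.09. These values cannot tell whether pools shared mice or a day. Alternatives used DESeq2 1.42.0, limma 3.58.1 and others given in the closing section. On simulated counts with 200 changed genes, 34% were recovered at a log2 difference of 1 and 90% at 2, with 2 false calls among 42867 genes.

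The comparison and the 49 gene lists (954 of 961 symbols tested) were chosen with earlier results of these data known. Named genes were taken by rule: per direction, 12 called genes with the largest difference at 10 CPM or more and 8 more at 100 CPM or more, without overlap between tissues and leaving out predicted genes, receptor segments and markers of other cells; up to 4 called members per pathway list at 5 CPM or more; the 3 most abundant markers per list of other cells; and 9 sort and cDC1 markers. A further 27 genes, and Adgre1, C1qa, Clec4f and the list members given only by name, were named after their values were seen. The single-cell data were not used here. 1 result is not reported here.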

Additional observations from a re-analysis of the deposited data

Results flagged for a closer look

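In each group of 4 libraries the value farthest from the others was compared with Dixon's 95% critical value for the gap divided by the range. Of 290 groups checked over named genes and marker sums, 21 held such a library, where chance gives about 1 in 20. In liver these were Cass4 in liver 3 at 6.00 CPM (the others 1.23 to 1.97), Ifi47 low in liver 3 at 17.0 CPM (29.5 to 31.9), Itgam in liver 4 at 3.42 CPM (1.05 to 1.21), Serpina1e in liver 1 at 26.04 CPM (10.1 to 10.6), Serpina3g in liver 2 at 204 CPM (91.5 to 107) and Smad3 in liver 1 at 5.69 CPM (3.21 to 3.38). Amy2a2 and Amy2a4 were each at 0.480 CPM in liver 4 (0.299 to 0.316), and Amy2a1 was at 0.00332 CPM in liver 1 and at 0 in the others.

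In pancreas they were Ccl5 in pancreas 3 at 611 CPM (252 to 284), Tgtp1 in pancreas 3 at 20.7 CPM (5.34 to 7.87), Dhrs3 in pancreas 3 at 324 CPM (194 to 207), Ccr9 in pancreas 4 at 19.4 CPM (8.70 to 9.48), Ctla2b in pancreas 4 at 21.4 CPM (14.2 to 15.2) and Mup7 in pancreas 1 at 0.593 CPM (0.349 to 0.382). Hpgds was low in pancreas 4 at 6.27 CPM (14.2 to 15.5) and Ins2 low in pancreas 1 at 4.45 CPM (8.93 to 9.54).

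Among marker sums, plasma cell genes stood out in liver 2 at 845 CPM (96.6 to 115), T cell genes in liver 4 at 22.2 CPM (17.2 to 17.9) and erythroid genes in liver 2 at 4.30 CPM (2.98 to 3.16), and cDC2 genes were low in liver 1 at 436 CPM (508 to 516).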

How the results depend on the processing

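None of the 494 calls that an alternative tested changed direction in any of 25 alternatives. Of the 112 called genes that were followed gene by gene, 39 kept the call wherever they were tested. The count of 494 (190 higher in liver, 304 in pancreas) became 1171 with DESeq2 (469 and 702), 820 with library totals (428 in liver) and 946 among genes with a mean of 1 CPM or more (398 and 548). With limma 395 genes were higher in liver at a pseudocount of 1 and 409 at 0.1. Against a log2 difference of 1, which asks for a larger change, 128 genes were called (49 and 79). Without liver 2, pancreas 3 and pancreas 4, which leaves fewer libraries, 177 were called (86 and 91). Leaving out 1 library at a time gave 343 to 749 calls, 130 to 295 higher in liver and 198 to 454 in pancreas. The highest counts came without duodenum 2, and the cause was not tested. Library totals moved the median log2 difference of all genes to 0.08 from 0.01. With a replicate block on the numbers in the titles, which the labels do not say mark shared pools, 436 genes were called (177 and 259). In it 19 of the 112 genes followed lost the call. Of genes not called, Cd40 passed in 9 alternatives, Xcr1 in 5 and Itgax in 4, all higher in liver, and Cd207 in 1, higher in pancreas. Among markers not called, 3 changed sign in some alternatives. For H2-Ab1 the log2 difference was 0.062 with library totals, 0.0022 at 1 CPM or more, 0.0825 and 0.0825 with limma, 0.049 without liver 2, pancreas 3 and pancreas 4, and -0.069 to 0.044 with 1 library left out. For Itgae it was 0.031 with library totals, 0.0415 and 0.0418 with limma, and -0.11 to 0.051 with 1 library left out. For Ccr7 it was 0.0020 with the replicate block, 0.21 without those 3 libraries, and -0.27 to 0.22 with 1 left out. The cause of these changes was not tested. Depth was 220.9 M counts or more in every liver and pancreas library, and 17 of the called genes were under 1 CPM in both tissues.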
